A study of Rattus norvegicus with 4 samples.

Results

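The genes described here encode the contacts between neighboring cells in cultures of INS-1 832/3, a rat insulinoma line that secretes insulin. The list has 10 members, taken by name from the 23360 gene symbols of the files: the cadherins Cdh1 and Cdh2, the catenins Ctnnb1 and Ctnna1, the adhesion molecules Epcam and Ncam1, the gap junction gene Gjd2, and the tight junction genes Tjp1, Ocln and F11r. Messenger RNA was sequenced from 2 samples of a standard monolayer (2D) and 2 samples of cells bioprinted into GelXA LAMININK 411, a gelatin-based hydrogel with laminin (3D). Mixing into the gel, printing, light curing and the matrix itself came together in the 3D samples, so their parts cannot be told apart. All 4 samples were taken after 5 days in culture, at passage 3, in the same medium with Geneticin, an antibiotic that selects for cells of this engineered line. INS-1 832/3 is a single tumor line, so replicates are cultures of the same line, and no other cell type is named for these samples. Values are TPM, transcript abundances normalized for transcript length and scaled to 1000000 per sample, summed over the transcripts of each gene, and a gene was called when its adjusted p was below 0.05 in limma's moderated test over 11960 genes.

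Cadherins are calcium-dependent receptors that bind the same kind of cadherin on the next cell, and catenins tie their tails to actin. Tight junctions seal the space between cells next to these contacts, through occludin, claudins and the junctional adhesion molecules, which the scaffold protein ZO-1 holds together. Gap junctions of connexin 36 couple beta cells electrically, which is known to keep the cells of an islet in step during glucose stimulation. E-cadherin, NCAM and connexin 36 are well known for their part in islet architecture.

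The labelled cell line was checked first. Ins1 stood between 114003 and 137822 TPM in the 4 samples, and all 10 beta cell markers passed the filter of a mean TPM of at least 1. Of these 10 markers 1 rose and 1 fell, where 38.0% of all genes tested were called in either direction. Ins2, the other rat insulin gene, fell from 13237 and 13340 to 8957 and 9326 TPM (adjusted p = 0.0095 in limma, log2 fold change -0.58), and Slc2a2, the gene of the glucose transporter GLUT2, rose from 491 and 454 to 626 and 654 TPM (0.39, adjusted p = 0.0075). Summed immune markers reached at most 1.47 TPM and endothelial markers at most 1.68 TPM, with Ptprc and Cdh5 listed at 0 in every sample. Of the 7 fibroblast and mesenchymal markers in the files, Dcn, Lum and Pdgfrb were listed at 0. Col1a1 and Col3a1 stayed at or below 0.020 TPM, while Thy1 had 178 to 212 TPM. Pdgfra had 1.90 and 1.87 TPM in the monolayers and 2.32 and 2.24 TPM in 3D culture. It was not called (adjusted p = 0.29 in limma). Among markers of other islet cells, Gcg, the glucagon gene, had 41.9 and 73.8 TPM in the monolayers and 124 and 155 TPM in 3D culture (log2 fold change 1.26, standard error 0.28, adjusted p = 0.022 in limma). The part of these shifts in the results below was not tested. The samples are bulk RNA, in which fewer cells of a type and less RNA per cell cannot be told apart.

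In these cultures 3 of the 10 contact genes rose in 3D culture, namely Ncam1, Ocln and Cdh1, and the other 7 did not pass the test. Among all genes tested 18.5% rose, 19.5% fell and 38.0% were called in either direction. The members' median log2 fold change was 0.082, against -0.0031 over all genes. By TPM alone, both 3D samples were above both monolayer samples for 5 members and below them for 2, and 3 overlapped, where 41.1% of all genes were higher, 33.2% lower and 74.2% one or the other. At an adjusted p below 0.01, 1 member (Ncam1) and 11.9% of all genes were called, and without scaling between samples 4 members (Epcam added) and 34.0% of all genes. None of the members fell in limma at the adjusted threshold, whereas 1 of the 4 with an unadjusted p below 0.05, Ctnna1, was lower in 3D culture, and 50.6% of all genes had such a p. The count of 3 became 0 in limma without 3D replicate 1 (2 at an unadjusted p below 0.05) and 1 without 3D replicate 2, and with either sample left out the calls over all genes dropped as well, from 4542 to 136 and 1037.

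In TPM, which is normalized for transcript length, the members ran over about an order of magnitude. Epcam, Cdh1, Ctnna1 and Ctnnb1 were the most abundant, and their mean levels were above those of 87.1% to 91.4% of the genes tested. Ncam1 followed at the 83.3 percentile, then Gjd2, Cdh2 and F11r at 68.1 to 73.3, and Ocln and Tjp1 near the middle, at 46.5 and 42.2. Neighbors in this order were often close. In monolayer, Epcam and Ctnna1 lay within 1 TPM of each other in replicate 1 (106.0 and 105.8), and Gjd2 and F11r overlapped, as did Ocln and Tjp1. In 3D culture Ocln stood above Tjp1 in both samples.

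**Figure D1:**
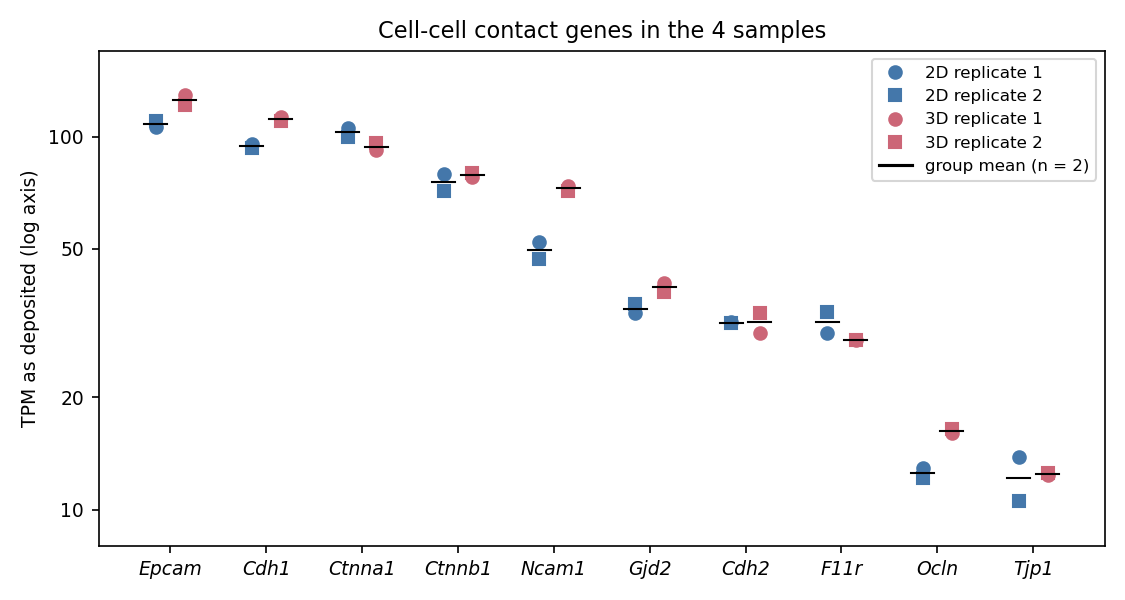
TPM as deposited (log axis) of the 10 contact genes in each sample, with 2D samples in blue, 3D samples in red, circles for replicate 1, squares for replicate 2 and bars for the mean of each group (n = 2). The largest gap between the groups is that of Ncam1, from 47.1 and 52.3 TPM in 2D to 71.6 and 73.8 TPM in 3D, while the groups of Ctnnb1, Cdh2 and Tjp1 overlap.

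Cdh1, the gene of E-cadherin, was measured at 95.5 and 93.1 TPM in the monolayer samples and at 113 and 110 TPM in the 3D samples. Both 3D samples were above both monolayer samples. The fit was made on log2(TPM + 1) after scaling between samples, and the rise there was 14.5% (log2 fold change 0.20, 95% interval 0.058 to 0.33, adjusted p = 0.040 in limma). This change was close to the median size among all genes, being larger than that of 45.0% of them, and it passed the threshold under 8 of the 14 other settings, and lost the call without the intensity trend (adjusted p = 0.074), with a replicate block (0.057) and in each of the 4 fits with a sample left out (0.062 to 0.24). Cdh2, which encodes N-cadherin, the cadherin of neurons that beta cells also carry, had 31.8 and 31.6 TPM in the monolayers and 29.8 and 33.7 TPM in 3D culture. The 3D samples lay on either side of the monolayer samples, and the interval of the log2 fold change ran from -0.23 to 0.14 (adjusted p = 0.67 in limma). Cdh1 was thus 3.01 and 2.94 times as abundant as Cdh2 in monolayer and 3.79 and 3.26 times in 3D culture. The ratio was higher in both 3D samples, by 0.24 on the log2 scale (SD 0.021 in 2D and 0.15 in 3D, n = 2), with p = 0.33 in a two-sided exact permutation test, the smallest p that 2 samples against 2 can give.

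The files list 23 classical and related cadherins named Cdh with a number, of which 6 passed the filter and 6 were at 0 in all samples. Cdh1 made up 52.9% and 53.2% of their summed TPM in the monolayers and 54.3% and 52.0% in 3D culture, so its share overlapped between the groups, although the sum itself was higher in 3D culture (181 and 175 against 208 and 211 TPM). This share was chosen after the values were seen. Cdh4, the gene of R-cadherin, rose along with Cdh1, from 12.8 and 10.4 TPM to 18.1 and 18.8 TPM (log2 fold change 0.59, standard error 0.09, adjusted p = 0.0082 in limma). Cdh23, a cadherin known from hair cell tip links and named after its values were seen, rose from 9.64 and 8.94 TPM to 12.9 and 16.6 TPM (adjusted p = 0.017 in limma). Cdh22 had 24.4 to 27.7 TPM across the samples and was not called (adjusted p = 0.55).

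Neither catenin of the list was called. Ctnnb1, the gene of beta-catenin, which binds cadherin tails and also acts in WNT signaling, had 79.5 and 71.5 TPM in the monolayers and 77.8 and 80.0 TPM in 3D culture. Its groups overlapped, and the interval of the log2 fold change was -0.12 to 0.16 (adjusted p = 0.77 in limma). Ctnna1 encodes alpha-catenin, the link from beta-catenin to actin. It had 106 and 99.5 TPM in the monolayers and 91.9 and 96.2 TPM in 3D culture. Both 3D samples were lower, by 0.17 on the log2 scale (95% interval -0.30 to -0.037), and the adjusted p of 0.053 in limma was just above the threshold, where it stayed under all 14 other settings (0.051 to 0.28). Per unit of Cdh1 plus Cdh2, Ctnnb1 stood at 0.62 and 0.57 in monolayer and at 0.54 and 0.56 in 3D culture. This ratio was lower in both 3D samples (two-sided exact permutation test, p = 0.33, the smallest possible).

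Of 23 further adherens junction genes, 13 passed the filter, 3 rose and 1 fell, where 18.5% of all genes rose and 19.5% fell. The list's median log2 fold change was 0.13. Besides Cdh4, the risers were Afdn, the gene of afadin, which ties nectins to actin, and Nectin1, a nectin that binds across cell borders. Afdn went from 24.1 and 20.2 to 29.5 and 29.95 TPM (adjusted p = 0.017 in limma, log2 fold change 0.37), and Nectin1 from 4.15 and 4.21 to 6.44 and 5.91 TPM (0.43, adjusted p = 0.019). Nectin3, at 31.2 to 42.4 TPM the most abundant gene of the list, had a log2 fold change of 0.24 and an adjusted p of 0.051 in limma. Ctnnd1, the gene of p120-catenin, which keeps cadherins at the membrane, had 27.0 to 31.3 TPM and overlapping groups (adjusted p = 0.79). The gene that fell was Jup, named here after its values were seen, which encodes plakoglobin, a relative of beta-catenin (14.4 and 13.0 TPM against 10.7 and 11.5 TPM, log2 fold change -0.32, adjusted p = 0.022 in limma).

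**Figure D2:**
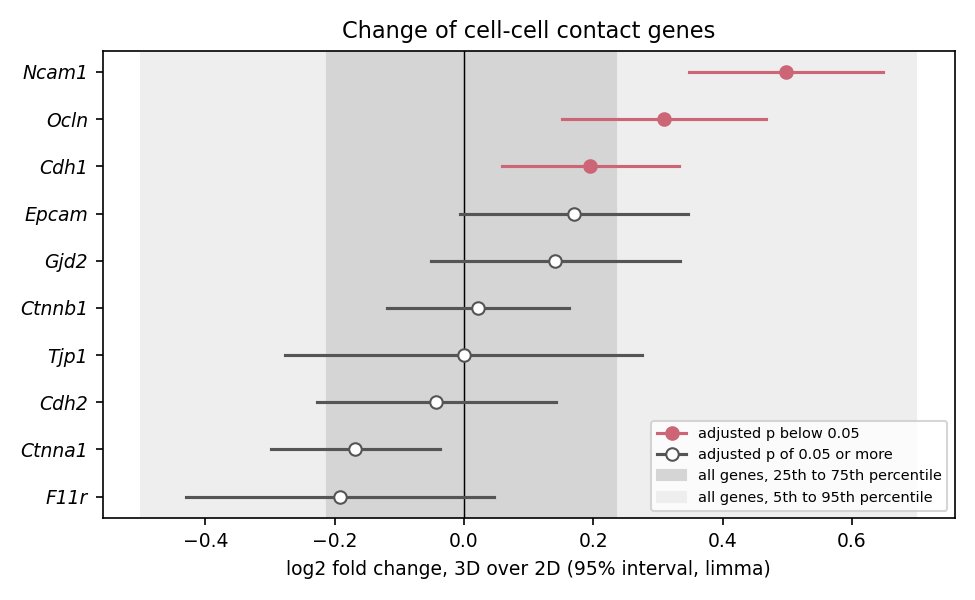
Log2 fold change of each contact gene, 3D over 2D, with its 95% interval from limma, filled red where the adjusted p was below 0.05, over bands that hold the middle 50% and the middle 90% of all 11960 genes. Ncam1 (0.50), Ocln (0.31) and Cdh1 (0.20) are the called genes, Cdh1 lies inside the inner band, and the intervals of Epcam, Gjd2, Ctnnb1, Tjp1, Cdh2 and F11r cross 0.

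Ncam1 had the largest change of the list. It encodes the neural cell adhesion molecule, an immunoglobulin-type receptor of neurons and endocrine cells. Its TPM were 52.3 and 47.1 in monolayer and 73.8 and 71.6 in 3D culture, and both 3D samples were above both monolayer samples. The mean levels were 49.7 ± 3.69 and 72.7 ± 1.56 TPM (SD, n = 2). On the scaled log2(TPM + 1) values of the fit the rise was 41.2% (log2 fold change 0.50, 95% interval 0.35 to 0.65, adjusted p = 0.0055 in limma), which was larger in size than that of 85.2% of all genes. It passed under 12 of the 14 other settings. It did not pass with the most abundant transcript in place of the sum (0.091) or without 3D replicate 1 (0.067).

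The files list 4 transcripts of Ncam1, and 1 of them, ENSRNOT00000072184.1, was at 0 in every sample. ENSRNOT00000082257.1 was the most even between replicates, with 17.8 TPM in each monolayer sample and 25.3 and 24.4 TPM in 3D culture, and it was called (log2 fold change 0.40, adjusted p = 0.025 in limma over 15020 transcripts, of which 23.5% were called). The leading transcript, ENSRNOT00000047666.5, had 20.9 and 25.1 TPM against 27.8 and 35.8 TPM and was not called (adjusted p = 0.15). ENSRNOT00000042281.6 had 13.6 and 4.23 TPM in the monolayers and 20.7 and 11.4 TPM in 3D culture, so its replicates differed more than its groups. The leading transcript took 40.0% and 53.2% of Ncam1 TPM in the monolayers and 37.7% and 50% in 3D culture, which overlap (two-sided exact permutation test, p = 0.67). Short single-end reads are divided among transcripts that share exons by estimation, so these values are less certain than the sum over the gene.

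Epcam encodes an epithelial adhesion molecule that binds its own kind. It had 106 and 110 TPM in the monolayers and 129 and 122 TPM in 3D culture, and both 3D samples were higher. The log2 fold change of 0.17 had an interval from -0.0059 to 0.35 and an adjusted p of 0.11 in limma. Without scaling between samples the adjusted p was 0.035. Cldn7, a claudin known to bind EpCAM, was listed at 0 in all samples.

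Of 18 further adhesion molecules, most of them of the immunoglobulin type, 11 passed the filter. Of these 3 rose and none fell, beside 18.5% and 19.5% of all genes, and the list's median log2 fold change was 0.20. At an unadjusted p below 0.05 the list held 4 genes, none of them lower, beside 50.6% of all genes. Nrcam, a relative of Ncam1 known from axons, rose from 22.2 and 22.1 to 34.8 and 42.6 TPM (log2 fold change 0.73, standard error 0.10, adjusted p = 0.0068 in limma), and Nfasc, the gene of neurofascin, from 35.5 and 31.1 to 51.8 and 51.2 TPM (0.58, adjusted p = 0.0050). Bsg, which encodes basigin, a chaperone of lactate transporters at the membrane, was the most abundant of them and rose from 477 and 503 to 620 and 641 TPM (0.32, adjusted p = 0.020). Cadm4 had 79.7 and 84.0 TPM against 102 and 92.1 TPM and was not called (adjusted p = 0.11). Of the enzymes that modify or cut these proteins, 5 were tested and 1 was called, beside 38.0% of all genes. The one called was Adam10, a protease known to shed the outer part of E-cadherin and N-cadherin. It rose from 18.7 and 15.9 to 23.5 and 27.3 TPM (log2 fold change 0.49, adjusted p = 0.014 in limma). Adam15 and Adam17, 2 related proteases, had adjusted p of 0.19 and 0.45. St8sia4, which adds polysialic acid to NCAM, had 1.24 to 1.42 TPM and an adjusted p of 0.51.

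**Figure D3:**
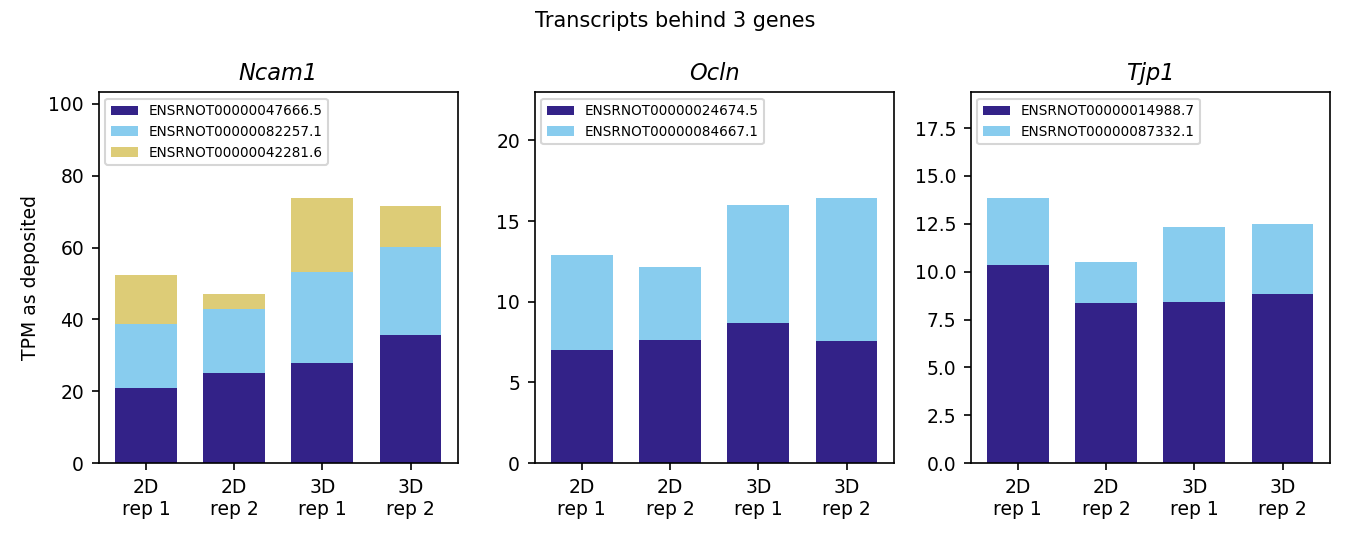
TPM as deposited of the transcripts of Ncam1, Ocln and Tjp1, stacked in each of the 4 samples, so that a bar's height is the TPM of the gene. The middle segment of Ncam1 is 17.8 TPM in both 2D samples and 25.3 and 24.4 TPM in the 3D samples, and the upper segment of Ocln is taller in both 3D samples while the lower one overlaps.

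Ocln encodes occludin, a membrane protein of tight junctions. It had 12.9 and 12.1 TPM in the monolayers and 16.0 and 16.4 TPM in 3D culture. Both 3D samples were higher, with mean levels of 12.5 ± 0.54 and 16.2 ± 0.30 TPM (SD, n = 2). On the scaled log2(TPM + 1) values of the fit the rise was 23.9% (log2 fold change 0.31, 95% interval 0.15 to 0.47, adjusted p = 0.017 in limma). It passed under 11 of the 14 other settings, and the lost calls were those without 3D replicate 1 (0.12), without 3D replicate 2 (0.11) and with the most abundant transcript alone (0.49). The gene has 2 transcripts of similar level. ENSRNOT00000084667.1 had 5.89 and 4.48 TPM against 7.33 and 8.83 TPM, with an adjusted p of 0.065. ENSRNOT00000024674.5, at 7.01 and 7.65 TPM against 8.67 and 7.60 TPM, overlapped between the groups (adjusted p = 0.64). Neither transcript was called on its own.

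Tjp1, the gene of the scaffold ZO-1, had 13.8 and 10.5 TPM in the monolayers and 12.4 and 12.5 TPM in 3D culture. The 3D samples lay between the monolayer samples, and the interval of the log2 fold change, -0.28 to 0.28, was the widest of the list. Its leading transcript, ENSRNOT00000014988.7, took 74.8% and 79.3% of the gene's TPM in the monolayers and 68.0% and 70.8% in 3D culture, a lower share in both 3D samples (two-sided exact permutation test, p = 0.33, the smallest possible), with neither transcript called. F11r encodes JAM-A, an adhesion molecule of tight junctions. It had 29.7 and 33.9 TPM in the monolayers and 28.6 and 28.5 TPM in 3D culture. Both 3D samples were lower, with a log2 fold change of -0.19, an interval of -0.43 to 0.046 and an adjusted p of 0.16 in limma, which was 0.023 without 2D replicate 1.

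Among 35 further tight junction and polarity genes 15 passed the filter, of which 2 rose and 2 fell, beside 18.5% and 19.5% of all genes. The list's median log2 fold change was -0.072. Cldn15, the gene of a claudin that forms ion pores, had the largest change of all the contact genes tested, from 3.59 and 3.05 to 9.67 and 8.64 TPM (a rise of 129.7% on the log2(TPM + 1) scale, log2 standard error 0.10, adjusted p = 0.0037 in limma). Tjp3 (ZO-3), a relative of Tjp1 named after its values were seen, rose from 12.4 and 12.7 to 15.5 and 15.7 TPM (0.25, adjusted p = 0.038). Jam3, a relative of F11r, fell from 8.71 and 7.76 to 5.03 and 6.47 TPM (-0.50, adjusted p = 0.025). Marveld2, the gene of tricellulin, had 15.9 to 17.5 TPM and Crb3, of the polarity complex, 30.4 to 34.6 TPM, with adjusted p of 0.95 and 0.32.

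Gjd2, the gene of connexin 36, had 33.6 and 35.6 TPM in the monolayers and 40.5 and 38.3 TPM in 3D culture. Both 3D samples were higher, by 10.3% in the fit (log2 fold change 0.14, 95% interval -0.051 to 0.33), but the adjusted p was 0.19 in limma and between 0.078 and 0.58 under the 14 other settings. Of the 19 connexin genes in the files it was the one that passed the filter. It held 96.8% and 96.4% of connexin TPM in the monolayers and 96.7% and 97.0% in 3D culture (two-sided exact permutation test, p = 0.67). Of the others 10 were listed at 0 in all samples, among them Gja1 (connexin 43), and the next highest, Gja4, reached 0.61 TPM. The wider list of connexins and pannexins had 2 tested genes, both pannexins, which form channels in a single membrane. Panx2 fell from 12.0 and 11.2 to 9.76 and 9.44 TPM (adjusted p = 0.028 in limma, log2 fold change -0.29), and Panx1 had 6.08 and 6.02 TPM against 5.48 and 4.78 TPM (-0.24, adjusted p = 0.10). The call of Panx2 was lost without scaling, without the filter and in each of the 4 fits with a sample left out.

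Of 13 desmosome genes, which build the spot-like contacts anchored to intermediate filaments, 4 passed the filter. Of these 1 rose and 2 fell, where 18.5% of all genes rose and 19.5% fell. Dsg2, the gene of desmoglein 2, rose from 52.4 and 44.7 to 61.4 and 62.5 TPM (log2 fold change 0.31, adjusted p = 0.022 in limma). Its partner Dsc2 fell from 13.3 and 11.9 to 10.4 and 11.2 TPM (-0.25, adjusted p = 0.046, a call kept in 6 of the 14 other settings), and so did Perp, a membrane protein of desmosomes and a known target of p53, from 26.3 and 30.1 to 17.4 and 18.3 TPM (-0.67, adjusted p = 0.0077). Pkp4, named after its values were seen, had 6.76 to 7.75 TPM and was not called (adjusted p = 0.94 in limma). Dsp, the gene of desmoplakin, without which desmosomes are not anchored, stayed at or below 0.020 TPM.

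**Figure D4:**
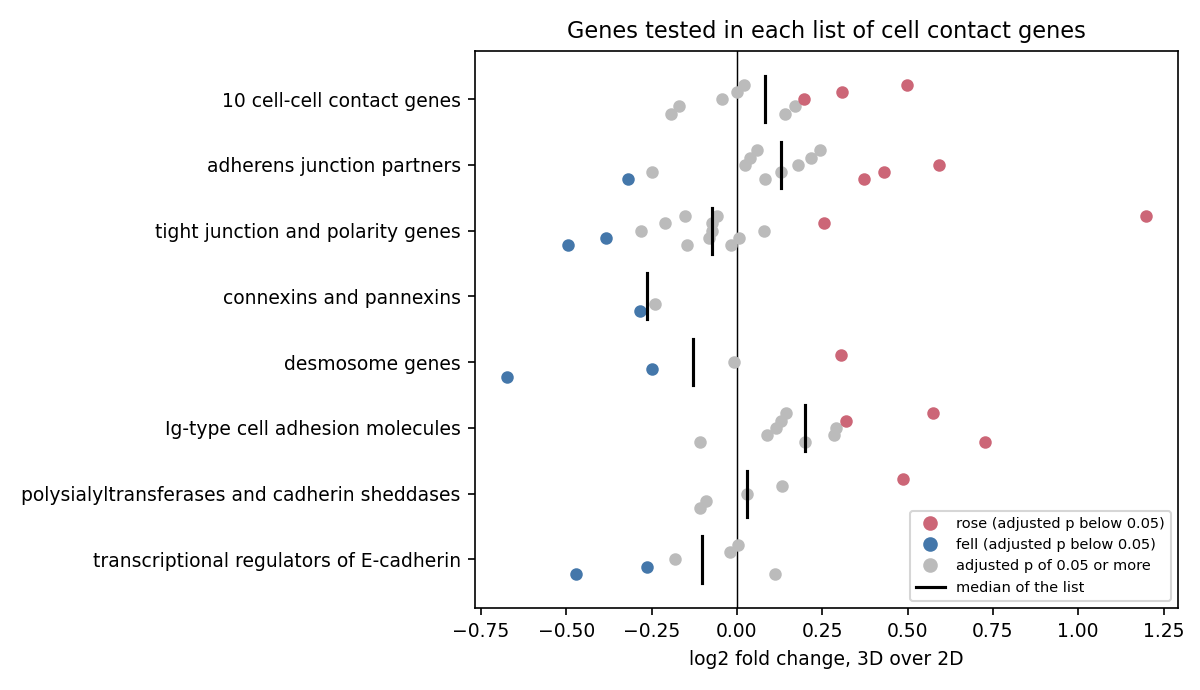
Log2 fold change, 3D over 2D, of each tested gene in the list of 10 contact genes and in 7 wider lists, red where the gene rose, blue where it fell and gray where it was not called, with a bar at each list's median and dots spread vertically only for legibility. Cldn15 lies farthest right and Perp farthest left (-0.67). Among the 11 Ig-type adhesion molecules tested, 3 are red and 0 blue, where 18.5% of all genes rose and 19.5% fell.

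Taking the 7 wider lists together, 56 of 131 genes passed the filter, 10 rose and 8 fell, which is 32.1% called beside 38.0% of all genes. Their median log2 fold change was 0.027. Of the 18 called genes Nrcam passed under all 14 other settings. Without 3D replicate 1 it was the only call left in these lists, and without 3D replicate 2 the lists held 4 calls.

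Snail, ZEB and TWIST proteins are known repressors of E-cadherin and of other junction genes, and Snail and ZEB proteins bind E-boxes of the letters CAGGTG. Of 15 regulators of E-cadherin and epithelial genes 6 passed the filter. In limma 2 of them fell and none rose, beside 19.5% and 18.5% of all genes. The same 2 were the ones with an unadjusted p below 0.05, which 50.6% of all genes had. Twist1 fell from 13.3 and 14.8 to 9.82 and 10.5 TPM (log2 fold change -0.47, adjusted p = 0.016 in limma). Esrp1, which is a splicing regulator of epithelial transcripts and not a transcription factor, fell from 70.0 and 63.3 to 55.2 and 58.8 TPM (-0.26, adjusted p = 0.022). Ovol2 (18.9 to 23.8 TPM) and Tcf3 (29.4 to 30.5 TPM) were not called, with adjusted p of 0.21 and 0.80. Snai1, Snai2 and Zeb2 stayed below 1 TPM in all samples and Zeb1 had 2.75 to 3.34 TPM (adjusted p = 0.38).

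Promoters were looked at for this box in 6 of the 10 members, with RefSeq sequences of the rat build GRCr8. Cdh1, Cdh2, Ctnna1 and Ncam1 had no entry. The box, CAGGTG or its reverse complement CACCTG, was in the 250 bases before the start site of 4 of the 6 (Ocln, Gjd2, Epcam and F11r), and in 15.9% of 33469 windows of the same length over all genes. Those of Ocln, the called gene with an entry, and of Gjd2 and Epcam, which were higher in both 3D samples without being called, are shown 5′ to 3′ up to the base before the start site, with the boxes in capitals. They lie at chr2:33441199-33441448, chr3:121229368-121229617 and chr6:12649679-12649928, all on the minus strand.
Ocln: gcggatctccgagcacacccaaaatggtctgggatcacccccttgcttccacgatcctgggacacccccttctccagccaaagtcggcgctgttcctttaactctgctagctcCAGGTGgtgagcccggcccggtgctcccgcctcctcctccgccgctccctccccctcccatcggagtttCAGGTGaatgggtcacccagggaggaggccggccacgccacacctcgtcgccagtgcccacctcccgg
Gjd2: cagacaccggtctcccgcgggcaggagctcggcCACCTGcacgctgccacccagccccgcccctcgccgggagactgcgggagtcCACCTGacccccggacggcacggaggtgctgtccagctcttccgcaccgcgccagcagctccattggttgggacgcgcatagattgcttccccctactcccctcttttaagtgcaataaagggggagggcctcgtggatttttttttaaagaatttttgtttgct
Epcam: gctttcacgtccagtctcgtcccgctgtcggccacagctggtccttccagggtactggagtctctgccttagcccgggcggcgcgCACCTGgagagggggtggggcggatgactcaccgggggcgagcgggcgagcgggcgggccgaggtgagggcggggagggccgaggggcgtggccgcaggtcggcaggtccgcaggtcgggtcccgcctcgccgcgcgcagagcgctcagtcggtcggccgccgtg
The boxes of Ocln begin 137 and 68 bases before the start site, those of Gjd2 217 and 165 bases before it, and the box of Epcam 165 bases before it. The box of F11r, whose window is not shown and which was lower in both 3D samples, begins 130 bases before the start site. Whether a box goes with the level of a gene was not tested. The windows of Ctnnb1 and Tjp1 held none. G and C made up 66.4% of the window of Ocln, 62.0% for Gjd2, 75.6% for Epcam and 61.2% for F11r. For Ctnnb1 and Tjp1 they made up 49.2% and 30.4%. The share of 15.9% over all genes was not matched for base composition. These are matches of letters, and no binding was measured.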

How the data were processed

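The authors sequenced stranded polyA libraries as single-end reads. By their description, quantification was per transcript with Salmon 1.2 against rn4 with the human insulin gene added (quality control by FastQC 0.11.8, per the labels). Transcript and contig names among the deposited values belong to a later rat assembly than rn4, so the build used could not be settled. The TPM values were deposited with decimal commas and sum to 1000000 in each of the 4 samples. TPM keep no sequencing depth, so no counting interval is given and the methods' count filter and DESeq2 test were not repeated. Here transcripts were added up by gene symbol, and a gene entered the test if its TPM averaged 1 or more over the 4 samples. Scaling between samples used trimmed means of M values without weights, leaving out 30% of M and 5% of A on each side. The model was fitted to log2(TPM + 1) in limma 3.58.1 (R 4.3.3) with an intensity trend, and p-values were adjusted by Benjamini-Hochberg. Fold changes are on that scale, which understates changes of low genes. Printed TPM are unscaled.

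The labels give 2 biological replicates a group, and p-values measure only the spread between these samples. Members and lists were chosen with earlier results of these data known, and the wider lists were written from gene function. Named are all members and, in each wider list, the 2 genes of highest mean TPM and the 3 of smallest p. Other genes named from the lists were chosen after their values were seen. Older symbols were matched through GRCr8 names. From the lists, Gja6, Pkp2, Pecam1, St8sia2 and Col1a2 were not analysed here, and a few genes of the lists are not reported here by name. Ratios were compared with exact permutation tests in SciPy 1.17.1. The fit was tested on simulated TPM with 200 changed genes, far fewer than the 4542 called here, and with changes larger than that of Cdh1. It therefore does not cover scaling under so many changes, or calls of changes as small as that of Cdh1. Alternatives covered scaling, filter, pseudocount, empirical Bayes options, replicate block, leading transcript and each sample left out.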

Additional observations from a re-analysis of the deposited data

How the results depend on the processing

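With 2 samples a group, leaving out a 3D sample moved most counts. Leaving out each sample in turn, limma called 136 to 4507 of the genes, 0 to 3 of the 10 contact genes and 0 to 2950 of the transcripts (3634 to 6455 transcripts at an unadjusted p below 0.05), and in these fits the lone sample is assumed to vary like the other group. The same fits called 0 to 4 adherens junction genes, 0 to 3 tight junction and polarity genes, 0 connexins and pannexins (0 to 2 at an unadjusted p below 0.05), 0 to 2 desmosome genes, 1 to 5 Ig-type adhesion molecules, 0 to 1 sheddases and polysialyltransferases and 0 to 2 regulators of E-cadherin. At an adjusted p below 0.01, 1418 genes and 1 contact gene were called. With the most abundant transcript in place of the sum, 1 contact gene and 2 sheddases were called. Without scaling, 0 connexins and pannexins (1 at an unadjusted p below 0.05) and 1 regulator of E-cadherin were called, and without the filter 1990 transcripts and 0 connexins and pannexins (1 at an unadjusted p below 0.05).

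Signs changed only for values that were not called. The log2 fold change of Tjp1 was 0.039 without scaling and 0.0042 with median of ratios scaling, and 0.15 and 0.0031 without 2D replicate 1 and without 3D replicate 2 (range without 1 sample -0.15 to 0.15). With each sample left out it ran from -0.12 to 0.033 for Cdh2 (above 0 without 3D replicate 1), from -0.019 to 0.059 for Ctnnb1 (below 0 without 2D replicate 2), from -0.045 to 0.090 for Ctnnd1, from -0.036 to 0.051 for Marveld2 and from -0.063 to 0.016 for Tcf3. It was -0.18 for Ctnnd1 and -0.0049 for Crb3 with the most abundant transcript, and 0.021 for Tcf3 without scaling. The difference in the share of Ncam1's leading transcript was -9.37 to 3.83 percentage points with each sample left out, above 0 without 2D replicate 2 (3.83) and without 3D replicate 1 (3.40). The log2 ratio of Cdh1 to Cdh2 was 0.13 to 0.35 higher in 3D culture in these fits.

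Taken over all genes, samples of the same replicate number did not deviate together (correlation of their deviations -0.0060 over 11960 genes). With 2 samples a group this cannot exclude pairing, and the main test used none. The share of Ncam1's leading transcript did go with the numbers, at 40.0% (2D) and 37.7% (3D) in replicate 1 and 53.2% and 50% in replicate 2. A replicate block called 4816 genes, 2946 transcripts and 2 contact genes, losing Cdh1, with 5, 4, 1, 2, 3, 1 and 2 genes in the wider lists in the order above. Of the 140 refits of contact genes, 121 kept their direction and their side of the threshold, 11 lost a call, 2 gained one and 6 changed sign.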
